A study of Mus musculus with 23 samples.

Results

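The 9 genes described here encode nuclear RNA-binding proteins: the SR-related splicing cofactors Rbm25, Ppig, Srrm1, Srrm2, Pnn and Son, the U1 snRNP-associated factor Luc7l2, and the FET family members Taf15 and Ewsr1. They are 9 of 22619 named genes, taken by name from the assembled transcripts, and their levels were read in all 8 combinations of stage and siRNA. The list was drawn up around large rises in Rfx1 knockdown (KD) 2-cell libraries, so the contrast of Rfx1 KD with control 2-cell embryos is given for them as values only, with no test. Of the 9 genes, 4 lay above every control library in that contrast (Rbm25, Ppig, Pnn and Taf15), 4 overlapped the controls (Srrm1, Srrm2, Luc7l2 and Ewsr1) and 1 lay below them (Son). The label of a shared rise therefore held for the gene values of Rbm25, Ppig, Pnn and Taf15 and not for the other 5. Outside the few exons described below, it held among these for Ppig alone.

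The study injected small interfering RNA into germinal vesicle oocytes of B6D2F1 mice, the cross of C57BL/6 and DBA/2, matured and fertilised them, and sequenced polyadenylated RNA from zygotes and 2-cell embryos. The siRNA was a random-sequence control (siCtrl) or was directed at Etv5, Mlx or Rfx1 (KD), each of which encodes a transcription factor. By the labels, zygotes were taken 14 h and 2-cell embryos 36 h after fertilisation, and the study's methods give later hours for both. The labels describe incubation with sperm and the methods sperm injection. There were 23 libraries, 3 in each group and 2 for Etv5 KD 2-cell embryos, and nothing in the labels says how many embryos each held. The p-values below measure the spread between these libraries.

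Values are FPKM, fragments normalised to transcript length and to the fragments of the library, summed over a gene's transcripts and rescaled so that the median gene was equal across the 23 libraries. The siRfx1 2-cell libraries held 119 to 174 Mb of aligned bases over transcripts and the other 20 libraries 404 to 991 Mb. The deeper libraries also detected more genes at 1 FPKM or above (8354 to 11135) than the siRfx1 2-cell libraries did (7378 to 8071). The part that this difference in depth had in the values below was not tested. The siRfx1 2-cell libraries also agreed least with each other, with a Pearson r of 0.706 to 0.741 on log2(FPKM + 1) over 10799 genes. The next lowest group was Mlx KD 2-cell embryos, at 0.874 to 0.939, and the siCtrl 2-cell libraries lay at 0.923 to 0.928. Rfx1 itself lay at 0.163 to 0.548 FPKM in siRfx1 zygotes against 2.96 to 3.49 in siCtrl zygotes. At the 2-cell stage it lay at 1.53 to 1.63 FPKM against 5.93 to 7.92. It was also low in Mlx KD embryos, at 1.18 to 1.8 FPKM in zygotes and 1.43 to 3.12 FPKM in 2-cell embryos, and in Etv5 KD 2-cell embryos, at 3.14 and 3.57 FPKM. As a check of the tissue, oocyte genes were present in every library (10 genes, summed level 2334 FPKM or more), although Zp2 was at 0 in all siRfx1 2-cell libraries. Genes of the 2-cell stage summed to 94.5 to 217 FPKM in siRfx1 2-cell libraries, 64.9 to 627 FPKM in the other 2-cell libraries and 17.2 to 74 FPKM in zygotes. Of these 9 genes, Tcstv1, Tcstv3 and Usp17ld were at 0 in every library. A mean of 1 FPKM was reached by 5 of them in siRfx1 2-cell libraries, 6 in the other 2-cell libraries and 5 in zygotes. The 7 sperm genes summed to 12.1 to 36.6 FPKM in zygotes and up to 10.1 FPKM in the other 2-cell libraries, and were at 0 in all siRfx1 2-cell libraries. The summed level of the 10 cumulus and granulosa genes did not exceed 11.6 FPKM in any library.

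Splicing removes introns through the spliceosome, whose choice of sites is helped by SR proteins and by SR-related proteins that carry stretches rich in arginine and serine. Glutamate, lysine and some arginine codons consist of A and G alone, so that charged repeats in such proteins are encoded by stretches rich in A and G. RBM25 binds RNA and takes part in alternative splicing with the U1 snRNP. PPIG is a nuclear cyclophilin, a prolyl isomerase with an arginine-serine tail. SRRM1, SRRM2 and SON are large proteins of nuclear speckles, PNN is a speckle protein linked to the exon junction complex, and LUC7L2 is a relative of a yeast U1 snRNP subunit. TAF15 and EWSR1 belong to the FET family and carry glycine-rich repeats.

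The values of Rbm25, Taf15, Ppig and Pnn in siRfx1 2-cell libraries rested on a few exons, whose sequences follow because they carry most of the signal. For Ppig and Pnn that exon is also most of the transcript. Coordinates are mm9, all 4 genes lie on the plus strand, and the bases are printed 5′ to 3′ on the sense strand. Capitals mark uninterrupted runs of at least 12 A or G. Every base shown is annotated as coding in GENCODE vM1 of the same build.
Rbm25 exon 10, chr12:85004929-85005209: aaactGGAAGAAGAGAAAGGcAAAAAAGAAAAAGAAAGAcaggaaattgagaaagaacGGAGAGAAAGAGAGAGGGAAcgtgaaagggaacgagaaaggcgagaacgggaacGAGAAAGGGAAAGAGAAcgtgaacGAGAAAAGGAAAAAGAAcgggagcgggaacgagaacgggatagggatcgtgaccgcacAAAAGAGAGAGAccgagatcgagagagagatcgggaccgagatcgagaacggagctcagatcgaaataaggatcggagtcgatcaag
Rbm25 exon 11, chr12:85009042-85009258: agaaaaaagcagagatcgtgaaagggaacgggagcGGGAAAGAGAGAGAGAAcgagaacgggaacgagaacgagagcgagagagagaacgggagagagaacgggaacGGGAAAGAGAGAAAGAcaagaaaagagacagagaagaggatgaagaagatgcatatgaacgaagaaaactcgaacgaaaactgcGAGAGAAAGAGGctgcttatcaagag
Taf15 exon 15, first 300 bases, chr11:83318144-83318443: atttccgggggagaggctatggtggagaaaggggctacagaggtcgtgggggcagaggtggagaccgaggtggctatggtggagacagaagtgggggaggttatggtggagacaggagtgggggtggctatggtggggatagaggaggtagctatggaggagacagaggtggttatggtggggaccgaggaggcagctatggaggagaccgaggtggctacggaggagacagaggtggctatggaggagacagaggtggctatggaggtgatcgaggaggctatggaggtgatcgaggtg
Ppig exon 14, the 200 bases richest in A and G, chr2:69587422-69587621: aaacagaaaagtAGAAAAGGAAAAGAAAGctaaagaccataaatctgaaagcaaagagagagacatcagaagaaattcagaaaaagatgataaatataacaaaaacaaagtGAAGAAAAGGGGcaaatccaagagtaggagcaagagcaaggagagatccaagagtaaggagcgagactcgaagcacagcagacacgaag
Pnn exon 9, the 200 bases richest in A and G, chr12:60172527-60172726: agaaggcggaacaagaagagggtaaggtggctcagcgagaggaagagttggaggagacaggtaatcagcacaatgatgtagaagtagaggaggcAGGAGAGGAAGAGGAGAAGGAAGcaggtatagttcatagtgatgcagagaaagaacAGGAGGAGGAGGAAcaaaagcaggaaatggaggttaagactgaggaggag

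A and G made up 81.9% of Rbm25 exon 10 and 83.4% of exon 11, and only 6 and 3 of 25585 exons of at least 200 bases had as high a share, themselves included. The 25585 exons belong to genes with a mean of 1 FPKM or more over the siRfx1 and siCtrl 2-cell libraries. Exon 10 held 6 runs of at least 12 A or G, a number reached by 1.5% of those exons, while 35.9% held at least 1 such run. All of Taf15 exon 15 was 72.8% A and G, a share reached by 36 exons, in repeats with no run as long as 12. The long last exons of Ppig and Pnn were less unusual as a whole (52.2% and 56.7%), and the files give 1 coverage value an exon, so the stretches printed for them have no value of their own.

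Rbm25 had the highest mean level of the 9 genes in siRfx1 2-cell embryos. Its level was 271, 516 and 488 FPKM in the 3 siRfx1 2-cell libraries, and 17.5, 13.4 and 24.6 FPKM in the siCtrl 2-cell libraries. It was 22.5 and 25.5 FPKM in Etv5 KD and 28.9, 33.3 and 33.3 FPKM in Mlx KD 2-cell embryos. In zygotes the group means ran from 27.7 ± 7.76 (SD, n = 3) in Etv5 KD to 38.4 ± 3.6 FPKM (n = 3) in siCtrl. The siRfx1 2-cell group, at 425 ± 135 FPKM (n = 3), stood 23-fold above the siCtrl 2-cell mean of 18.5 ± 5.67 (n = 3). None of the other 20 libraries exceeded 42.4 FPKM, and the ranges of the neighbouring groups among the other 7 overlapped.

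Ppig also had its highest group in siRfx1 2-cell embryos, followed by Mlx KD 2-cell embryos at 34.2 to 41.7 FPKM. The siRfx1 2-cell libraries lay at 372, 305 and 465 FPKM. The siCtrl 2-cell libraries lay at 29.6, 22.7 and 30 FPKM, and no library outside the siRfx1 2-cell group exceeded 41.7 FPKM. Mean levels were 381 ± 80.6 and 27.5 ± 4.1 FPKM (SD, n = 3 each), a ratio of 13.9.

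Pnn was already abundant in control embryos and moved less. Its siRfx1 2-cell libraries lay at 372, 259 and 282 FPKM against 89.6, 92.7 and 70.2 FPKM in siCtrl, a ratio of means of 3.62. The Mlx KD 2-cell libraries came next, at 233, 153 and 128 FPKM, also above all siCtrl 2-cell libraries. In Etv5 KD it lay at 69.5 and 69.2 FPKM, just below the lowest control.

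Taf15 was close to 0 everywhere else. It read 17.6, 46.8 and 66.7 FPKM in siRfx1 2-cell libraries and at most 1.62 FPKM in the other 20 libraries, where it was listed at 0 in 7. The siCtrl 2-cell values were 0.753, 0.319 and 0.477 FPKM. The ratio of means was 84.6, but the siCtrl level was under that of 1 read per base in any library, so the ratio rests on very few reads.

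The other 5 genes showed no such separation. Srrm1 lay at 34.2, 36.8 and 54.3 FPKM in siRfx1 against 27.9, 40.7 and 37.8 FPKM in siCtrl 2-cell libraries. Srrm2 lay at 14.6 and 14.8 FPKM in siRfx1 libraries 1 and 2 but at 36.6 FPKM in library 3, against 28.1 to 32.3 FPKM in siCtrl. Luc7l2, at 12.3, 16.5 and 17 FPKM, touched the control range of 10.9 to 12.3 FPKM. Ewsr1 split the siRfx1 group, with 14.6 and 13.7 FPKM in libraries 1 and 2 and 1.75 FPKM in library 3 against 4.51 to 7.1 FPKM in siCtrl. Son was lower in every siRfx1 2-cell library (41, 41.8 and 28.1 FPKM) than in every siCtrl 2-cell library (47, 46 and 62.4 FPKM). These gene values include exon 1 of Son, of 161 bases, which read 0 to 1.29 FPKM in siRfx1 and 291 to 386 FPKM in siCtrl. Whether the separation of Son holds without that exon was not tested. Across all 10302 genes tested in that contrast, 8.66% had every siRfx1 library above every siCtrl library. The 4 of 9 members above the controls were chosen on it, so nothing is read from the comparison of these shares.

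**Figure D1:**
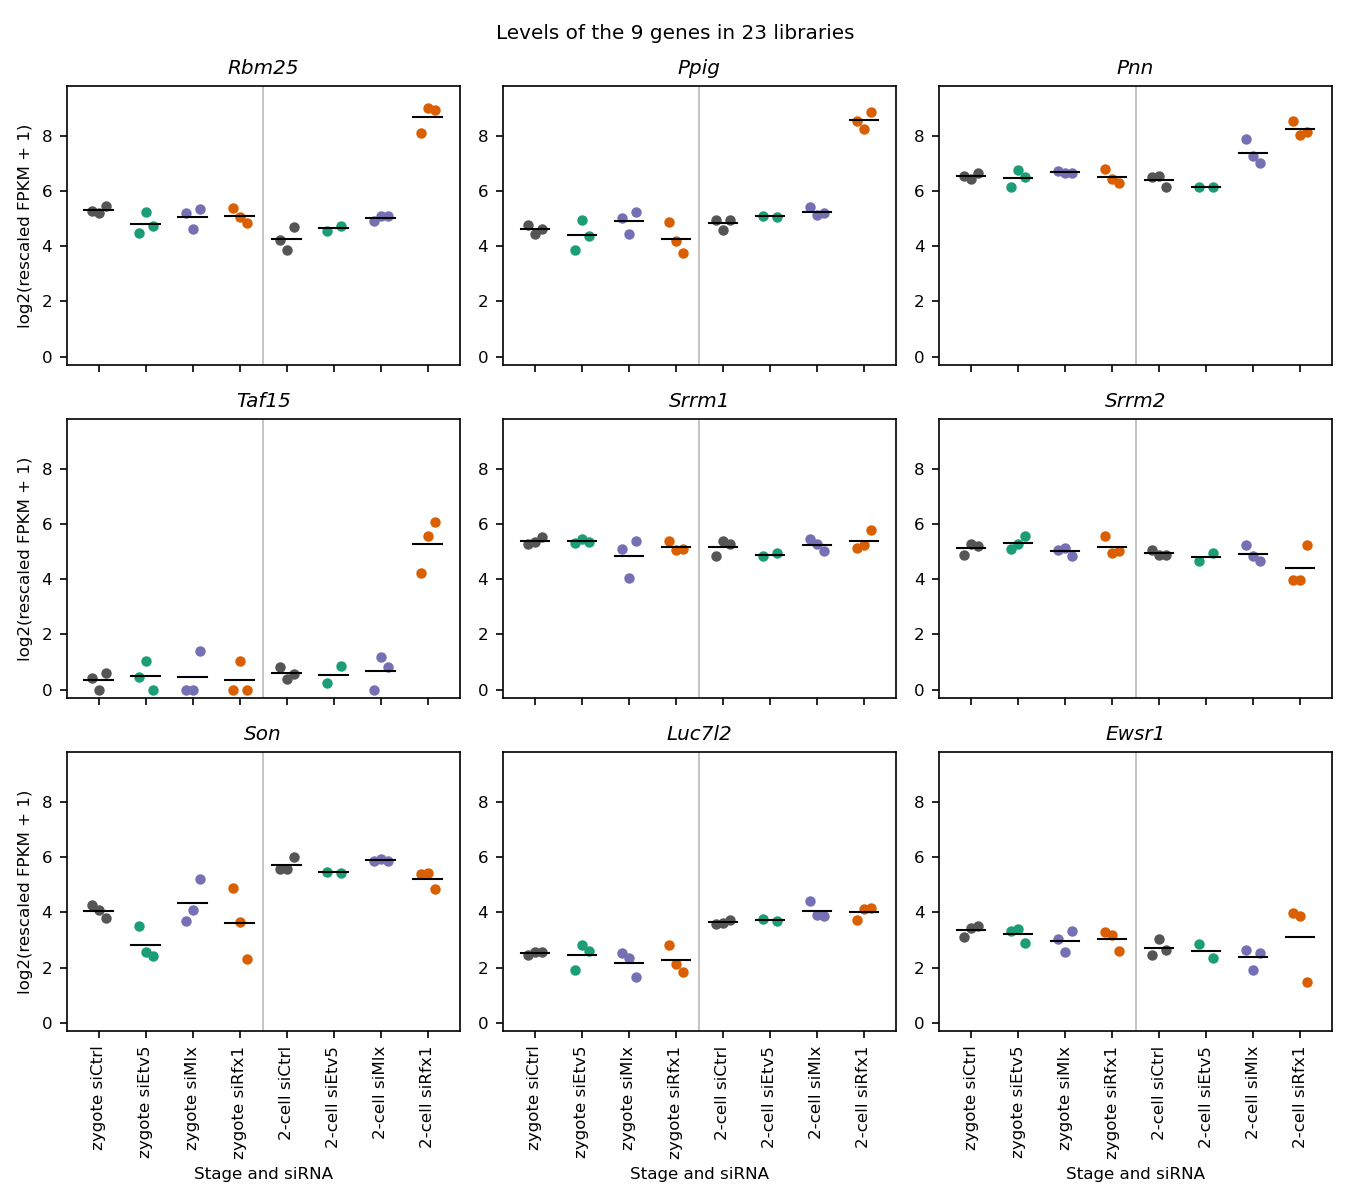
Level of each gene as log2(rescaled FPKM + 1) on the vertical axis, by stage and siRNA on the horizontal axis. Each point is a library, each black bar a group mean, and the grey line parts zygotes from 2-cell embryos. The 3 siRfx1 2-cell libraries lie above all other 20 libraries for Rbm25, Ppig, Pnn and Taf15 only, and the 2-cell means of Son and Luc7l2 lie above the zygote means under every siRNA.

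The exon values show where along each gene the signal lay. The deposited tables give the coverage of every exon, which was put on the FPKM scale. Short exons were rarely covered in any library. In genes with a mean of 10 FPKM or more and at least 3 exons, 83.6% to 96% of exons under 100 bases were at 0 in the other 20 libraries and 97% to 97.5% in siRfx1 2-cell libraries. For exons of at least 200 and under 300 bases the shares were 18.1% to 36.3% and 62.2% to 67.1%. A 0 in a short exon is therefore no sign that the exon was left out. Some short first exons were exceptions with high values, among them those of Pnn and Son. Coverage of 1 read per base corresponded to 5.75 to 8.4 FPKM in siRfx1 2-cell libraries and 1.01 to 2.47 FPKM elsewhere.

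In Rbm25 the excess lay in exons 10 and 11 of 19, which make up 11.7% of the transcript. Exon 10 read 2389, 4711 and 4519 FPKM in siRfx1 2-cell libraries against 42.6, 36.1 and 32.5 FPKM in siCtrl. Exon 11 read 1770, 3764 and 2479 FPKM against 30, 22.4 and 33.2 FPKM. The 2 exons carried 87.2% to 97.7% of the gene's signal in siRfx1 2-cell libraries and 15.6% to 36.1% in the other 20 libraries. The rest of the transcript, read as a transcript of its own, lay at 25, 13.7 and 70.9 FPKM in siRfx1 against 14.9, 11.2 and 23.5 FPKM in siCtrl. Libraries 1 and 2 were thus close to or within the control range outside these exons, and library 3 was above it. In library 3 the last exon, of 1621 bases, read 137 FPKM, while libraries 1 and 2 read 15.9 and 14.8 FPKM against 8.12 to 22.3 FPKM in siCtrl. Exon 1 read 36.2, 73.2 and 0 FPKM against 64.7, 74.3 and 101 FPKM.

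In the siRfx1 2-cell libraries Taf15 had its whole signal in 1 exon. Exon 15 of 16, 463 bases and 22.6% of the transcript, read 77.8, 207 and 295 FPKM in siRfx1 2-cell libraries and 3.17, 1.14 and 0 FPKM in siCtrl. Every other exon was at 0 in the 3 siRfx1 2-cell libraries, the last one of 323 bases included. The gene value of Taf15 in these libraries is therefore the value of exon 15. Where Taf15 was detected in the other 20 libraries, at levels close to 0, exon 15 held from 0% to 100% of the signal. In siCtrl 2-cell libraries it held 95.1%, 80.8% and 0%. In those 20 libraries exon 15 read at most 7.19 FPKM, so the shares rest on very few reads. They cannot show whether a signal in exon 15 alone was particular to the siRfx1 2-cell libraries.

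Ppig and Pnn had their excess mainly in the last exon, which makes up 76% and 74.7% of the transcript. In Ppig it carried 93.7% to 95.2% of the signal in siRfx1 2-cell libraries and 73.1% to 77.6% in siCtrl. In Pnn the shares were 95.5% to 98.3% and 67.8% to 74.7%. Ppig exon 14, of 4788 bases with 1108 of them coding, read 466, 376 and 581 FPKM against 30.2, 21.9 and 29.5 FPKM. The rest of Ppig was also higher, at 74.3, 79.8 and 98.4 FPKM against 27.7, 25.5 and 31.6 FPKM, but unevenly. Exon 10, of 208 bases, read 94.9, 134 and 327 against 89.6, 85.7 and 98.2 FPKM. Exon 11, of 168 bases, read 117, 0 and 479 against 37.6, 51 and 48 FPKM. Exon 13, of 137 bases, read 525, 642 and 0 against 15.6, 7.91 and 112 FPKM. Exon 1, of 276 bases, read 2.56, 17.1 and 0 against 28.9, 12.5 and 12.2 FPKM. Pnn exon 9, of 2592 bases with 1385 coding, read 489, 331 and 369 FPKM against 81.2, 91.2 and 70.2 FPKM. In the rest of Pnn the order was the opposite, with 25, 46 and 25.4 FPKM in siRfx1 against 114, 97.1 and 70.1 FPKM in siCtrl. Most of that difference was exon 1, at 111, 205 and 113 FPKM against 455, 422 and 310 FPKM. The siRfx1 2-cell libraries thus lay above the controls at the 3′ end of Pnn and below them at its 5′ end. Mlx KD 2-cell libraries, the next highest for Pnn, showed another pattern, with 2446, 1340 and 803 FPKM in exon 1 and 127, 102 and 106 FPKM in exon 9. Their rest of the transcript read 549, 303 and 191 FPKM, so most of the Pnn excess under Mlx KD lay outside the exon that carried it under Rfx1 KD.

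Without these exons, only Ppig of the 9 genes still had every siRfx1 2-cell library above all other 20, in place of 4. What remained of Ppig lay mainly in exons 10, 11 and 13, unevenly between the libraries. The choice of exons was made after their values were seen.

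The other members had uneven exons in the same libraries. Srrm1 exon 1, of 118 bases, read 35.3, 66.2 and 0 FPKM in siRfx1 against 129, 129 and 89.7 FPKM in siCtrl. Srrm2 exon 1, of 212 bases, read 52.8, 60.8 and 311 FPKM against 225, 164 and 168 FPKM. Son exon 1, of 161 bases, read 0, 0 and 1.29 FPKM in siRfx1 against 326, 386 and 291 FPKM in siCtrl, and it was also near 0 in 1 Mlx KD and 1 Etv5 KD 2-cell library (0.564 and 1.84 FPKM). Exon 3 of Son, of 5970 bases, read 19, 20.5 and 33.8 against 36.3, 36.7 and 55.1 FPKM. The last exon of Son was higher in libraries 1 and 2 (206 and 196 FPKM) and lower in library 3 (21.3 FPKM) than the controls (54.6 to 94.8 FPKM). Luc7l2 lay lower at exon 1 (3.44, 5.08 and 0 against 23.6 to 27.8 FPKM) and lay higher at its last exon (14.9, 14 and 9.99 against 5.07 to 6.63 FPKM). The last exon of Ewsr1 was higher in all 3 libraries, at 27.5, 30.8 and 10.1 against 5.31 to 7.8 FPKM, while its exon 7 was at 0 in all 3. Of the 27 member exons of at least 200 bases, 7 had every siRfx1 library above every siCtrl library, against 4.75% of all such exons. As the members were chosen on this contrast, nothing is read from that count.

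**Figure D2:**
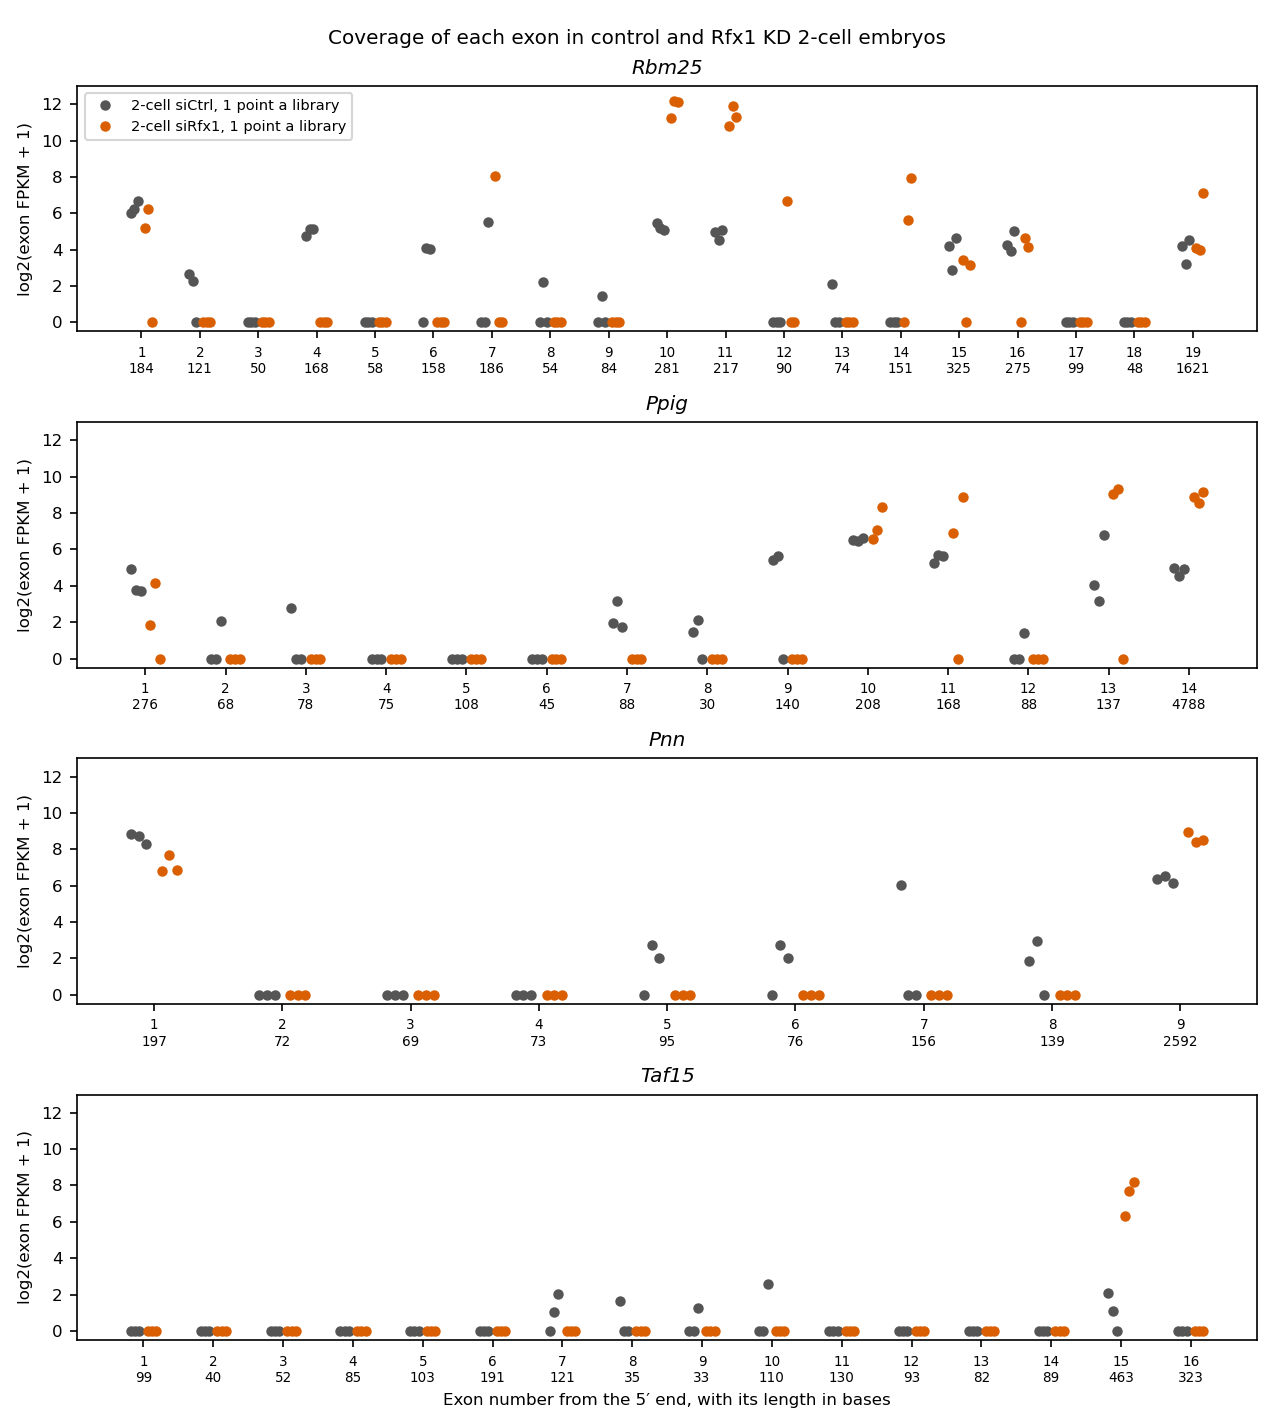
Exon coverage as log2(exon FPKM + 1) on the vertical axis, for each exon from the 5′ end on the horizontal axis with its length in bases, in 2-cell embryos. Each point is 1 of 3 siCtrl (grey) or 3 siRfx1 (orange) libraries. The siRfx1 points stand above the siCtrl points at Rbm25 exons 10 and 11, Taf15 exon 15, Ppig exon 14 and Pnn exon 9, and below them at Pnn exon 1.

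The exons of other genes were then sorted by their share of A and G. Exons were kept if their gene had a mean of 1 FPKM or more over the siRfx1 and siCtrl 2-cell libraries. Among 25558 exons of at least 200 bases outside the 9 genes, the median difference between siRfx1 and siCtrl 2-cell embryos was -0.75 on the log2(exon FPKM + 1) scale. It was -0.70 in the 9454 exons with 45% to 50% A and G, 0 in the 228 exons with 65% to 70%, 0.61 in the 46 exons with 70% to 75%, and 2.73 in the 24 exons with 75% or more. Every siRfx1 library lay above every siCtrl library in 4.8%, 18.4%, 30.4% and 50% of these exons. The median difference of exons of other genes was thus positive in the classes with 70% or more A and G, and negative in those under 65%. These medians include exons at 0, which were more frequent in siRfx1 2-cell libraries, as described above. Coverage of 1 read per base was 5.75 to 8.4 FPKM there and 1.01 to 2.47 FPKM in the other 20 libraries. The negative medians therefore cannot separate a lower level from a lack of coverage, and the part of depth in them was not tested. In the class with 75% or more, the medians of the other contrasts were 0.46 in Mlx KD and 0.10 in Etv5 KD 2-cell embryos, and -0.01, 0.02 and -0.17 in Rfx1, Mlx and Etv5 KD zygotes. These comparisons share their siCtrl libraries within a stage, and the values are descriptions with no test. A gene could pass the filter through its siRfx1 2-cell values alone, so nothing is read from the smaller medians of the other contrasts. The cause of the relation was not tested.

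Ranked by that difference, Rbm25 exon 10 was 7th, Rbm25 exon 11 was 8th and Taf15 exon 15 was 9th of 25585. The 20 highest included 17 exons of other genes, of which 6 had 70% or more A and G, as did 70 of all 25558 exons outside the 9 genes (0.274%). Those ahead of Rbm25 were exons of Chaf1a, Ptp4a2, Rnf20, Zc3h13, Srpk2 and Tmsb10, named after their values were seen. Chaf1a exon 5 was 85.2% and Zc3h13 exon 12 was 82% A and G, while Ptp4a2 exon 6 and Tmsb10 exon 4 had 51.2% and 51%. A high share was not general at the top of the ranking. Within the members, Ewsr1 exon 16 (68% A and G) and Srrm1 exon 17 (66.2%) had differences of -0.51 and -1.61. Ewsr1 exon 16 read 66.3, 79.3 and 0 FPKM in siRfx1 against 22.3, 40.2 and 15.1 FPKM in siCtrl 2-cell libraries. Srrm1 exon 17 read 48.5, 0 and 0 FPKM against 0.552, 26.4 and 32.1 FPKM. Both negative differences thus rest on siRfx1 libraries at 0.

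**Figure D3:**
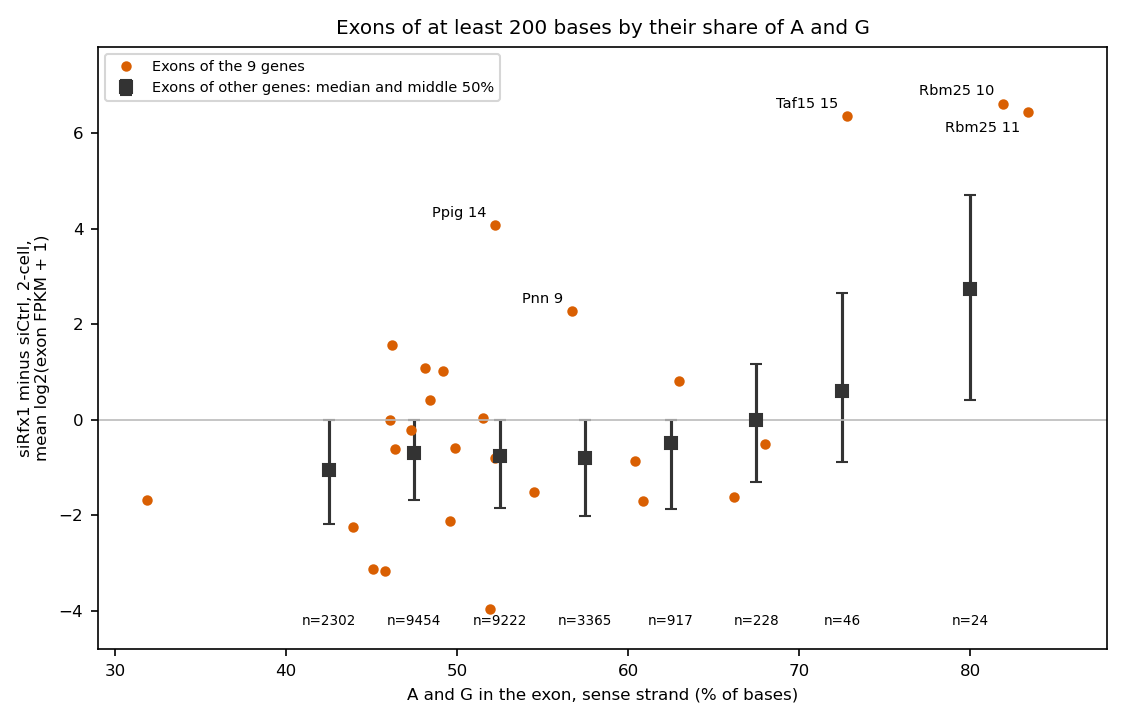
Difference in mean log2(exon FPKM + 1) between siRfx1 and siCtrl 2-cell libraries on the vertical axis, against the percentage of A and G in the exon on the horizontal axis. Squares with bars are the median and interquartile range of exons of other genes in 8 classes, drawn at the class centre, with exons under 45% in the first and 75% or more in the last. Orange points are the 27 member exons, and the exons of Rbm25 and Taf15 that carry their signal lie at the upper right.

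The members share some features of sequence, which the rule did not read directly. A 200-base window with at least 70% A and G was found in 8 of the 9 transcripts, Ewsr1 reaching 69.5%, and in 11.1% of 10799 genes. This count is not independent of the choice of genes, as exons with 70% or more A and G had higher median differences in the same contrast. Longer transcripts also hold more windows, so nothing is read from the count. The highest windows were those of Rbm25 (87%), Pnn (80.5%), Ppig (78%) and Taf15 (75.5%), the 4 genes above the controls, and those of the other members with such a window ran from 70% in Son to 73% in Luc7l2. This order was noticed after the values were known. The transcripts were 2049 to 8600 bases long against a median of 2618 over all genes. The half-site GTTGCC, one form of the sequence that RFX factors bind, was searched on both strands from 250 bases before to 50 bases after each start in RefSeq promoters of GRCm38.p6. All 9 members had an entry, none held it, and 14.1% of genes with an entry did. A site this short is no mark of binding and the members are few, so nothing is read from its absence. The exons used here overlapped no exon of another gene, except for 4 bases shared by Srrm2 and Tceb2 on the opposite strand.

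Zygotes gave the first comparisons that the choice of genes did not use. In zygotes injected with siRfx1, siMlx or siEtv5, none of the 8 members that passed the filter was called against siCtrl. A call needed an adjusted p under 0.05 and a change above 2-fold in limma, fitted to all genes with a mean of 1 FPKM or more. Taf15 was below that level. Among all genes, 0.0557% were called in Rfx1 KD, 2.15% in Mlx KD and 0% in Etv5 KD zygotes, so that few calls were made anywhere. At an unadjusted p under 0.05 the counts of members were 0, 0 and 1, and voom, which weights estimated fragment counts, also called none. Rbm25 read 40.5, 32.3 and 27.6 FPKM in siRfx1 zygotes against a siCtrl range of 35.5 to 42.4 FPKM, a log2 change of -0.23 ± 0.19 (SE, adjusted p = 0.58). Ppig had a log2 change of -0.37 ± 0.28 (adjusted p = 0.55) and Pnn of -0.08 ± 0.18 (adjusted p = 0.86). All 3 overlapped the controls, though Rbm25 was below them in libraries 2 and 3, and the lowest adjusted p of any member under Rfx1 KD was 0.52. Exons 10 and 11 of Rbm25 read 100, 60.8 and 44.9 FPKM together in siRfx1 zygotes and 78.7 to 111 FPKM in siCtrl zygotes.

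Under Etv5 KD, Son had the lowest p of the zygote comparisons. Its values were 10.2, 4.87 and 4.36 FPKM against 18.4, 15.8 and 12.8 FPKM in siCtrl, with no overlap, as for 9.24% of all genes in this direction. The log2 change of -1.22 ± 0.32 did not pass the correction over all genes (adjusted p = 0.32 in limma). Under Mlx KD the lowest adjusted p was that of Srrm1, at 0.26, with a log2 change of -0.61 ± 0.31.

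At the 2-cell stage, Mlx KD and Etv5 KD embryos were compared with each other, as neither group entered the choice of the genes. No member was called by limma, 1 of 8 had an unadjusted p under 0.05, and 0.0283% of all genes were called. Pnn had the largest difference, at 233, 153 and 128 FPKM in Mlx KD against 69.5 and 69.2 FPKM in Etv5 KD, with a log2 difference of 1.23 ± 0.37 (adjusted p = 0.22). It reached 1.25 ± 0.29 with an adjusted p of 0.026 in limma when all 8 groups were fitted together. In 6 of the 8 members every Mlx KD library lay above every Etv5 KD library, as in 18.9% of all genes, and the median difference was 0.35 for the members and -0.10 for all genes. Apart from Pnn their log2 differences were 0.16 to 0.42, less than 2 standard errors each.

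From zygote to 2-cell embryo, Son and Luc7l2 rose, and they did so under both KDs that could be tested. Son, which organises nuclear speckles and helps splice weak introns, read 10.2, 4.87 and 4.36 FPKM in Etv5 KD zygotes and 43.6 and 41.8 FPKM in 2-cell embryos. Under Mlx KD it read 12, 16 and 35.6 FPKM in zygotes and 56.9, 59.4 and 57.7 FPKM in 2-cell embryos. No 2-cell value overlapped the zygote values in either, as for 41.0% and 35.9% of all genes in this direction. The log2 changes were 2.99 ± 0.39 (adjusted p = 0.00092 in limma) under Etv5 KD and 1.75 ± 0.40 (adjusted p = 0.0047) under Mlx KD. Over all genes the median change was 0.40 and 0.20, so Son rose beyond the shift of the whole table in both.

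Luc7l2 read 2.74, 6.07 and 5.05 FPKM in Etv5 KD zygotes and 12.5 and 11.7 FPKM in 2-cell embryos. Under Mlx KD it went from 4.78, 4.04 and 2.16 FPKM to 20.2, 14 and 13.6 FPKM. The log2 changes were 1.61 ± 0.36 (adjusted p = 0.0086 in limma) and 2.04 ± 0.34 (adjusted p = 0.00081). The call under Etv5 KD was lost without either 2-cell library (adjusted p = 0.095 without replicate 1 and 0.088 without replicate 2). The transcript of Luc7l2 with the long last exon made up 71.4% to 100% of the gene in Mlx KD zygotes and 54.5% to 65.5% in Mlx KD 2-cell embryos, the rest being a transcript of 2723 bases. With the transcript of the highest mean level alone, the change under Etv5 KD was 0.79 ± 0.34 (adjusted p = 0.085 in limma). Control embryos, described without a test, went from 4.53 to 4.97 FPKM to 10.9 to 12.3 FPKM.

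These 2 calls stood beside a large change of the whole table: 60.9% of genes were called under Etv5 KD and 64.5% under Mlx KD, and 37.9% and 35.4% were called higher. Higher calls were 62.3% of all calls under Etv5 KD, and 49.7% with the length trend removed. A share of 2 of 8 members is below both. No other member was called. Under Etv5 KD, Ppig changed by 1.04 ± 0.39 (adjusted p = 0.055), and it was called when FPKM were left as deposited, with voom, with a filter at 5 FPKM and without zygote replicate 2. Pnn changed by 0.92 ± 0.33 under Mlx KD (adjusted p = 0.037), a change under 2-fold, and by 0.03 ± 0.31 under Etv5 KD (adjusted p = 0.94). Rbm25 changed by 0.19 ± 0.34 and 0.18 ± 0.31, with adjusted p of 0.65 and 0.63. The stage change itself did not differ between Mlx KD and Etv5 KD for any of the 8 members at an adjusted p under 0.05 in limma, where 2.1% of genes were called, 1 member had an unadjusted p under 0.05 and voom called none. The lowest was Pnn, with a difference of 1.05 ± 0.45 (adjusted p = 0.21 in limma). For Son it was -1.06 ± 0.60 (adjusted p = 0.33).

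**Figure D4:**
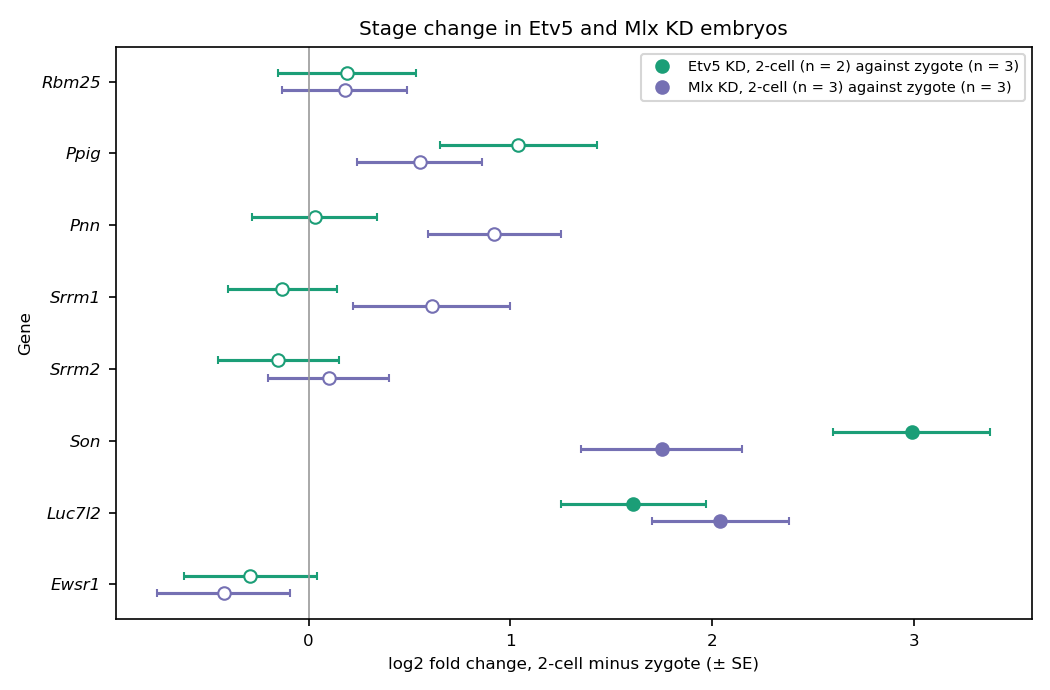
Log2 fold change from zygote to 2-cell embryo, with its standard error, on the horizontal axis for the 8 genes tested, under Etv5 KD (green) and Mlx KD (purple). Filled circles are calls at an adjusted p under 0.05 and above 2-fold, and open circles are not. Son and Luc7l2 are filled under both.

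Other genes of the same machinery were read from 7 lists with 78 genes in the files: SR proteins, SR-related cofactors, U1 snRNP and associated proteins, FET and paraspeckle proteins, nuclear cyclophilins, SR protein kinases, and the exon junction and ASAP complexes. The lists leave out the 9 genes, and a few genes stand in 2 lists. From zygote to 2-cell embryo, 30 of 71 tested genes rose and 6 fell under Etv5 KD, with a median change of 0.81 against 0.40 for all genes. Under Mlx KD 33 rose and 8 fell, with a median of 0.85 against 0.20. Of all genes, 37.9% were called higher and 23% lower under Etv5 KD, and 35.4% higher and 29.1% lower under Mlx KD. SR proteins, which bind exonic enhancers, rose in 10 of 12 under Etv5 KD and 9 of 12 under Mlx KD, with none lower. Differences between the lists were not tested. Tra2a, a splicing activator of this list, went from 2.08 ± 0.853 (n = 3) to 72.6 ± 2.96 FPKM (SD, n = 2) under Etv5 KD, a log2 change of 4.96 ± 0.35 (adjusted p = 0.00011 in limma). Srsf1, the first SR protein gene to be characterised, changed by 4.21 ± 0.96 (adjusted p = 0.0091) and under Mlx KD by 4.45 ± 0.68 (adjusted p = 0.00054).

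Of the SR-related cofactors, 5 rose and 4 fell of 21 under Etv5 KD, and 9 rose and 2 fell under Mlx KD. Bclaf1 rose by 3.31 ± 0.36 under Etv5 KD and Arglu1 by 4.39 ± 0.39 under Mlx KD. Nktr, a cyclophilin with arginine-serine repeats like Ppig and a member of both that list and the cyclophilins, rose by 4.0 ± 0.35 and 3.62 ± 0.32. Ppil1, another cyclophilin, rose by 4.23 ± 0.47 and 5.62 ± 0.48. Snrpc, a U1 snRNP protein gene, went from 5.97 ± 3.99 (n = 3) to 218 ± 3.47 FPKM (SD, n = 2) under Etv5 KD, and its log2 changes were 5.47 ± 0.46 and 5.71 ± 0.42 under the Etv5 and Mlx KDs. Among the kinases, Clk4, which phosphorylates SR proteins, rose by 3.3 ± 0.3 and 2.27 ± 0.31, while Srpk2 had a log2 change of -1.68 ± 0.32 under Mlx KD. Within the exon junction complex, Casc3 rose by 3.35 ± 0.32 and 3.18 ± 0.36 whereas Magohb had log2 changes of -4.38 ± 0.36 and -4.69 ± 0.64. All of these calls had adjusted p-values of 0.0018 or less in limma. Among FET and paraspeckle genes 3 of 9 rose under each KD, and Pspc1, a paraspeckle protein gene, rose by 2.13 ± 0.32 and 3.21 ± 0.53 (adjusted p = 0.0017 and 0.00082 in limma).

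In zygotes few list genes were called, as was so for all genes. No list gene was called by limma under Rfx1 or Etv5 KD, of 67 tested in each. The lowest adjusted p in any list was 0.24 under Rfx1 KD (Dyrk1a, log2 change -0.53 ± 0.15) and 0.33 under Etv5 KD, shared by Srsf2 (1.06 ± 0.33), Scaf4 (0.89 ± 0.27) and Matr3 (-0.93 ± 0.28). Under Mlx KD 2 of 66 fell, where 1.02% of all genes were called lower: Ppil1, a cyclophilin of the spliceosome, with a log2 change of -2.1 ± 0.4 (adjusted p = 0.042 in limma), and Clk2, a kinase of SR proteins, with -1.34 ± 0.24 (adjusted p = 0.041). Neither was called with all 8 groups in a fit, where 0 genes were called lower by limma and 888 genes had an unadjusted p under 0.05. Between Mlx KD and Etv5 KD 2-cell embryos none of 70 was called by limma, the lowest adjusted p being 0.19 for Clasrp (2.07 ± 0.54). In the test of a different stage change, Scaf4 alone of 71 was called, with a difference of 2.34 ± 0.51 (adjusted p = 0.037).

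Under Rfx1 KD at the 2-cell stage 6 of 71 list genes rose and none fell in limma. Of all genes 3.56% were called, 2.12% higher and 1.45% lower. The median change was 0.50 for the lists and -0.25 for all genes. The members were chosen on this contrast, and the lists with earlier results of these data known. Nothing is therefore read from the count or the median of the lists. Of all calls 59.4% were higher, a share that went to 11.1% with FPKM as deposited and 91.7% with the length trend removed. The list genes called were Arglu1, Scaf11, Prpf38b and Sfrs18 among the SR-related cofactors, Matr3 among the paraspeckle proteins, and Srpk2, a kinase of SR proteins. Prpf38b went from 48.6 ± 3.59 to 279 ± 80 FPKM (SD, n = 3 each, adjusted p = 0.0099) and Srpk2 from 5.34 ± 2.13 to 32.4 ± 6.77 FPKM (adjusted p = 0.039). None of the 6 was called without siCtrl replicate 1, 2 or 3. Their signal, too, was uneven along the gene. Srpk2 exon 9, of 250 bases with 71.2% A and G, had the 5th largest exon difference (6.85), and the exon of Arglu1 with the largest difference was 72.6% A and G, whereas those of Scaf11 and Prpf38b had 59% and 59.4%.

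Of 5388 genes reaching 20 FPKM in some group, those whose 8 group means were most like the mean profile of the 9 genes were Zranb1, Reps1, Bptf, Wnk1 and Wdr5 (Pearson r = 0.98 to 0.96 on log2 values). Those most like Rbm25 were Senp6, Ptk2 and Ankrd12 (r = 0.99 to 0.98), and those most like Taf15 were Slc27a3, Pycard and Csnk1g3 (r = 1.00 to 0.99). With 8 points and 1 group far above the rest, such values mostly record a high siRfx1 2-cell mean. Csnk1g3 was steady within the group, at 180 ± 10.9 FPKM against 26.9 ± 3.16 in siCtrl (SD, n = 3 each), while Slc27a3 read 33 ± 45.5 FPKM.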

How the data were processed

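Libraries were made from oligo-dT primed, amplified cDNA with a kit that does not mark strand. Per the labels and the study's methods, the authors aligned reads to mm9 with STAR 2.5.2b and estimated RefSeq transcripts with StringTie (1.3.3b in the file headers, 1.3.4 in the submitters' processing notes). The treatment of reads with several matches is not given in the sources used here. The deposited tables hold, among other values, coverage, TPM and FPKM per transcript and coverage per exon. The authors' own read counts were not used here, so the tests are on FPKM.

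FPKM were summed per gene over 22619 named genes (976 transcripts without a name were left out), rescaled by median ratios, and tested as log2(FPKM + 1) by limma 3.58.1 (R 4.3.3) with a mean of at least 1 FPKM, trend and Benjamini-Hochberg adjustment over all genes. Fold changes are on the log2(FPKM + 1) scale, which understates low genes. Each comparison was rescaled on its own libraries, and printed levels on all 23. The fit was tested on simulated data. Exon FPKM is the exon's coverage on its library's FPKM scale. Depth is given as aligned bases over transcripts, since fragment numbers are not in the tables.

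The members and lists were chosen with earlier results of these data known. Genes were named by a rule: all members and Rfx1, the genes most like them, and in each list and comparison up to 2 called genes with the largest change, or with none called the one with the lowest p. Some of the genes the rule names were given only in counts. Exons and genes of the exon ranking were chosen after their values were seen. Same-numbered libraries did not deviate together, so the replicate number was not used as a block. Alternatives were the pseudocount (0.1), the filter (none or 5 FPKM), no rescaling, all 8 groups in a fit, the replicate block, voom, 1 transcript a gene, removal of a length trend, and leaving out each library.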

Additional observations from a re-analysis of the deposited data

Results flagged for a closer look

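The change from zygote to 2-cell embryo ran in opposite directions in every library for 3 pairs of siRNA groups, on values rescaled over all 23 libraries. Rbm25 was lower in all siCtrl 2-cell libraries than in all siCtrl zygotes (log2 change -1.05) and higher in all siRfx1 2-cell libraries than in all siRfx1 zygotes (3.59), a difference of 4.64 that was not tested, because the gene was chosen on these libraries. Pnn was lower in all Etv5 KD 2-cell libraries (-0.34) and higher in all Mlx KD ones (0.71), a difference of 1.05. The limma test of it gave an adjusted p of 0.21, and with those 2 stages of Etv5 KD rescaled alone the Etv5 change was 0.03, so its direction depends on the scaling. Pnn under Rfx1 KD rose by 1.74, which differs from Etv5 KD by 2.08 and was not tested.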

How the results depend on the processing

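Counts of called genes depended on the settings. In Rfx1 KD zygotes 5 genes were called, and 0 with all 8 groups in a fit, no filter or the replicate block, 1 with the length trend removed or voom, 2 as deposited or with pseudocount 0.1, and 2 to 8 leaving out a library. In Mlx KD zygotes 192 became 4 with all groups, 683 as deposited, 100 with the length trend removed, 21 with no filter, 127 with the block, 319 with voom and 2 to 261 leaving out a library. In Etv5 KD zygotes 0 (1117 at an unadjusted p under 0.05 in limma) became 1 with a filter at 5 FPKM, the highest transcript or voom, 3 with the block and 0 to 66 leaving out a library. For Mlx against Etv5 KD 2-cell embryos 3 became 291 with all groups, 10 as deposited, 0 with no filter, 1 with pseudocount 0.1, 1223 with the block, 7 with the highest transcript and 0 to 50 leaving out a library. The stage counts of 6631 (Etv5 KD) and 6694 (Mlx KD) ran from 3818 to 6804 and 6070 to 6707 leaving out a library. The difference of the stage changes went from 224 to 144 with pseudocount 0.1, 111 with the block and 28 to 661 leaving out a library. In Rfx1 KD 2-cell embryos 367 became 3140 with all groups, 1331 as deposited, 107 with no filter, 712 with pseudocount 0.1, 87 with the block and 0 to 704 leaving out a library, and the 6 list genes became 17 with all groups, 2 with no filter, 1 with the block and 0 to 8. The libraries whose removal moved a count by over 1.5 times were control replicate 2 and siRfx1 replicate 3 for Rfx1 KD zygotes, all but siMlx replicate 2 for Mlx KD zygotes, control replicates 1 and 2 and siEtv5 replicate 2 (66) for Etv5 KD zygotes, every library between the 2-cell KDs (siMlx replicate 1 gave 50), both 2-cell siEtv5 libraries for the Etv5 stage change (3818 and 3871), and all but 2-cell siMlx replicate 1 and zygote siMlx replicate 2 for the difference of stage changes. For Rfx1 KD 2-cell embryos they were each siCtrl library (0, 0 and 5) and siRfx1 replicates 1 and 3 (704 and 568). As deposited, the share of calls that were higher went from 52.6% to 10.4% in Mlx KD zygotes and from 33.3% to 10% between the 2-cell KDs. The causes were not tested.

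Of the members, 0 were called in the 3 zygote comparisons and the difference of stage changes under any alternative run, where few genes were called at all. Between Mlx and Etv5 KD 2-cell embryos 1 (Pnn) was called with all groups and with the replicate block, where its log2 difference was 1.44 (adjusted p = 0.041 in limma). Under Etv5 KD the 2 stage calls became 1 with the highest transcript and 1 to 3 leaving out a library, and under Mlx KD 2 to 3. The 4 members above all other 20 libraries became 4 to 5 leaving out a siRfx1 2-cell library, and 1 without the exons named above, both chosen after seeing the data. No member's called change reversed. Correlations of same-numbered libraries' deviations ran from -0.108 to 0.264, so the numbers were not taken as pairs. The siRfx1 2-cell libraries had the lowest depth and the lowest correlation between replicates, which limits their values.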
